A study of Mus musculus with 2 samples.

Results

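Chromatin accessibility was examined at 7 genes of Paneth cells and intestinal antimicrobial defence (Lyz1, Mmp7, Ang4, Reg3a, Reg3b, Reg3g and Nod2), out of 22367 protein-coding genes annotated on the mouse assembly mm9. The genes were chosen by name for what they encode, with earlier results of these data known. ATAC-seq, which marks DNA that a transposase can reach, was performed on enteroids, epithelial cultures grown from ileal crypts of mice 4 months old on a mixed C57Bl6/129sv background. Control enteroids were Taf4 lox/lox and carried no Cre, whereas Taf4-inactivated enteroids were Taf4 lox/lox::VilCreERT2, in which the Villin promoter, active throughout the intestinal epithelium, drives a Cre recombinase that acts once 4-hydroxytamoxifen (4-OHT) is given. The floxed alleles and 3 days of 1 µM 4-OHT were thus common to both genotypes. The labels call the genotypes WT and KO, and the number of mice behind each culture is not given in the sources used here. There was 1 library per genotype, so no difference between genotypes has a replicate check and no test between them was made.

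Paneth cells lie at the base of the small intestinal crypts among the stem cells and release granules of antimicrobial proteins into the crypt lumen, besides supplying the stem cells with growth signals. Lysozyme (Lyz1) cleaves bacterial cell walls, matrilysin (Mmp7) is the protease that activates the α-defensins of mice, and angiogenin 4 (Ang4) is a granule ribonuclease that kills microbes. Reg3a, Reg3b and Reg3g are secreted C-type lectins, made by enterocytes as well as Paneth cells when microbes are sensed. Nod2 is an intracellular sensor of muramyl dipeptide, a fragment of bacterial cell wall.

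For each gene, a peak within 1 kb of any annotated start site was counted as a promoter peak, and any other peak in the gene body plus 20 kb on each side as a distal peak. The fold enrichment of a peak is relative to the background of its own library and cannot be compared directly between libraries, so each peak was also placed by the percentile of its fold within its own list. The control list held 90445 peaks and the Taf4-inactivated list 71282. The low end of the background levels solved from fold and p (5th percentile over the narrowest 10% of peaks) was 12.1 reads in control and 7.35 after Taf4 inactivation, so that the second library had an estimated 60.5% of the depth of the first. At those background levels, about 23.1 reads (1.83-fold) were needed to reach the lowest −log10 p of the control list, and 16.2 reads (2.06-fold) that of the Taf4-inactivated list. Reads solved in this way are a mean pileup, the number covering a base, and not the number in a whole peak. The targeted gene, annotated as Taf4a, had a promoter peak in both lists (percentile 74.7 and 58.7), which does not report whether the floxed exons were present. Of 7 epithelial markers, 6 had a promoter peak in control and 7 after Taf4 inactivation, where Krt20 was added at percentile 59.8. For fibroblasts and muscle the counts were 4 and 4 of 5, and for endothelium 2 and 1 of 4, Pecam1 having one in control alone at percentile 21.8. Of the immune cell markers, Itgam had one in both lists (percentile 59.3 and 29.4), Cd68 in control alone (10.7), and Ptprc and Cd3e in neither. The part of other cell types in the results was not tested.

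Taf4 is a subunit of TFIID, the general factor that recognises core promoters and whose TATA-binding subunit contacts the TATA box. The 100 bases before the first annotated start site of each gene (NCBIM37, mm9) are therefore shown 5′ to 3′ on the strand of the gene, with the TATA box letters TATAAA in capitals:
Lyz1, chr10:116729925-116730024, minus strand: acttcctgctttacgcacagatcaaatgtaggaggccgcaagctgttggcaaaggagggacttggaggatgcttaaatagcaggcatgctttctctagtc
Mmp7, chr9:7691986-7692085, plus strand: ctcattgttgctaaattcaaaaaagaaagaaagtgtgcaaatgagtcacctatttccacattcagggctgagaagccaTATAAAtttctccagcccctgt
Ang4, chr14:52393266-52393365, minus strand: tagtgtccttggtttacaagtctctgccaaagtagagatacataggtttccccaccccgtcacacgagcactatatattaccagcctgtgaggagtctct
Reg3a, chr6:78330603-78330702, plus strand: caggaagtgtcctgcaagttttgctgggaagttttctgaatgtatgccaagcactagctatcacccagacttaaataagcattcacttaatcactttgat
Reg3b, chr6:78320779-78320878, plus strand: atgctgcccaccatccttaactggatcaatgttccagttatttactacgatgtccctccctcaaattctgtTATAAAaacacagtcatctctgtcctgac
Reg3g, chr6:78418869-78418968, minus strand: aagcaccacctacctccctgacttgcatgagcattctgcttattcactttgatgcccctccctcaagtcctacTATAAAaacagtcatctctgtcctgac
Nod2, chr8:91171114-91171213, plus strand: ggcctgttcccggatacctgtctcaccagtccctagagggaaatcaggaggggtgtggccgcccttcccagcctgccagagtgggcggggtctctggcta

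Mmp7, Reg3b and Reg3g, 3 of the 7 genes, carried TATAAA on the sense strand between 40 and 20 bases before the start, at 22, 29 and 27 bases respectively, against 531 of all coding genes (2.37%). Of the 4474 genes in the quintile of lowest CpG content, to which Reg3b and Reg3g belong, 250 carried these letters there. In Lyz1, Ang4, Reg3a and Nod2 these exact letters were not found in that stretch, and variants of the TATA box were not searched. Reg3b and Reg3g were identical over the 20 bases just before the start (acagtcatctctgtcctgac), and 73.8% identical over an alignment of the 100 bases. Reg3a was less similar, with 51.9% identity to Reg3b and 54.0% to Reg3g. Lyz1 had 48.6% identity to its neighbour Lyz2 over the same length, whereas Ang4 had 83.0% identity to Ang5 and to Ang6. Among all coding genes, a promoter peak was called at 37.1% of those with TATAAA at this position against 69.1% of those without in control, and at 32.8% against 66.3% after Taf4 inactivation. In the quintile of genes with the lowest CpG content these shares were 17.2% against 21.8% and 12.8% against 17.9%.

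A promoter peak was called at 2 of the 7 genes, Lyz1 and Nod2, and at the same 2 in both lists. With peaks of a −log10 q of at least 2 the control count was 1, Nod2, and at 5 or more it was 0, while the Taf4-inactivated count stayed at 2. The share of all coding genes at these thresholds was not counted. The −log10 q was higher in the Taf4-inactivated list for 77.7% of all pairs of overlapping peaks at start sites. Mmp7, Ang4, Reg3a, Reg3b and Reg3g had none in either list, and no gene had one in a single list. Of all coding genes, 68.4% had a promoter peak in control and 65.6% after Taf4 inactivation, with 62.7% in both, 5.70% in control alone and 2.90% in the Taf4-inactivated list alone. The 2 of 7 thus lay below the share of all genes in each list. In bulk enteroids, a change in the number of Paneth cells and a change in the signal per cell cannot be told apart.

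The low share went with the base composition of these promoters, a comparison chosen after the values were seen. The ratio of observed to expected CpG within 500 bp of the start was 0.101 for Reg3a, 0.123 for Reg3b and 0.138 for Reg3g, all in quintile 1 (the lowest) of coding genes. It was 0.192 for Lyz1, 0.205 for Mmp7 and 0.253 for Ang4, in quintile 2, and 0.457 for Nod2, in quintile 3. In quintile 1, 21.5% of genes had a promoter peak in control and 17.7% after Taf4 inactivation. In quintile 2 these shares were 44.1% and 37.8%, in quintile 3 80.8% and 77.7%, and in quintile 5 98.5% and 98.3%. Among the 3 genes of quintile 2, Lyz1 had a peak whereas Mmp7 and Ang4, with somewhat higher ratios, had none. Whether the CpG content accounts for the missing peaks was not tested.

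**Figure D1:**
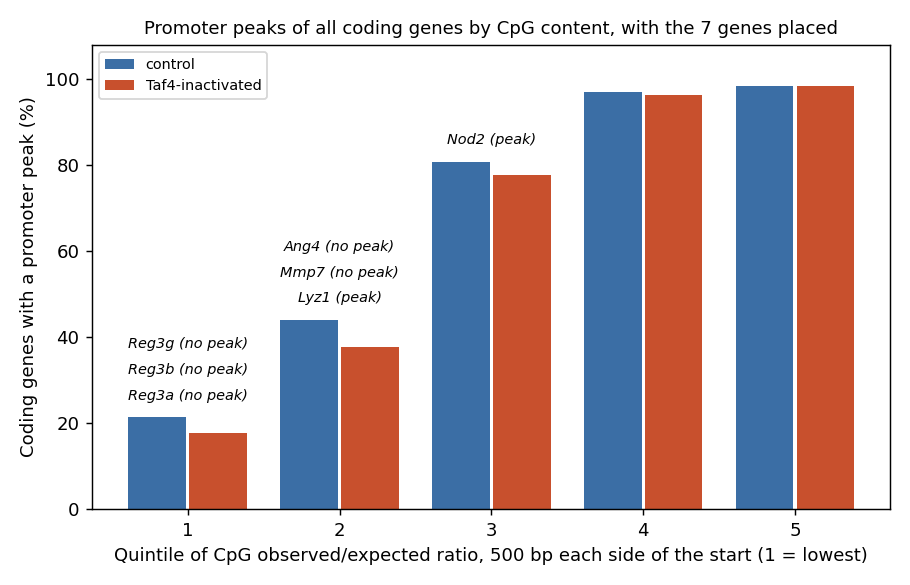
Percentage of all coding genes with a promoter peak (y axis) in each quintile of the CpG observed to expected ratio within 500 bp of the start (x axis, 1 the lowest), for control (blue) and Taf4-inactivated (red) enteroids, with the 7 genes written above the quintile they fall in. Reg3a, Reg3b and Reg3g sit in the quintile where 21.5% and 17.7% of genes have a peak, and Lyz1 and Nod2 are the 2 with one in both lists.

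Around the 7 genes, 12 peaks were called in control enteroids (2 promoter and 10 distal) and 15 after Taf4 inactivation (2 promoter and 13 distal). The control peaks belonged to 4 genes, Lyz1, Mmp7, Ang4 and Nod2. The Taf4-inactivated peaks belonged to 6, as Reg3a and Reg3b shared 1 peak, and Reg3g had none. A coding gene had a median of 3 distal peaks in each list, while the 7 genes had a median of 1 in control and 2 after Taf4 inactivation. No distal peak was found at 3 of the 7 genes in control and at 1 after Taf4 inactivation, against 18.1% and 21.3% of all coding genes. Of the distal peaks, 3 of 10 in control and 2 of 13 after Taf4 inactivation lay within 1 kb of a start site annotated for another gene or pseudogene.

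**Figure D2:**
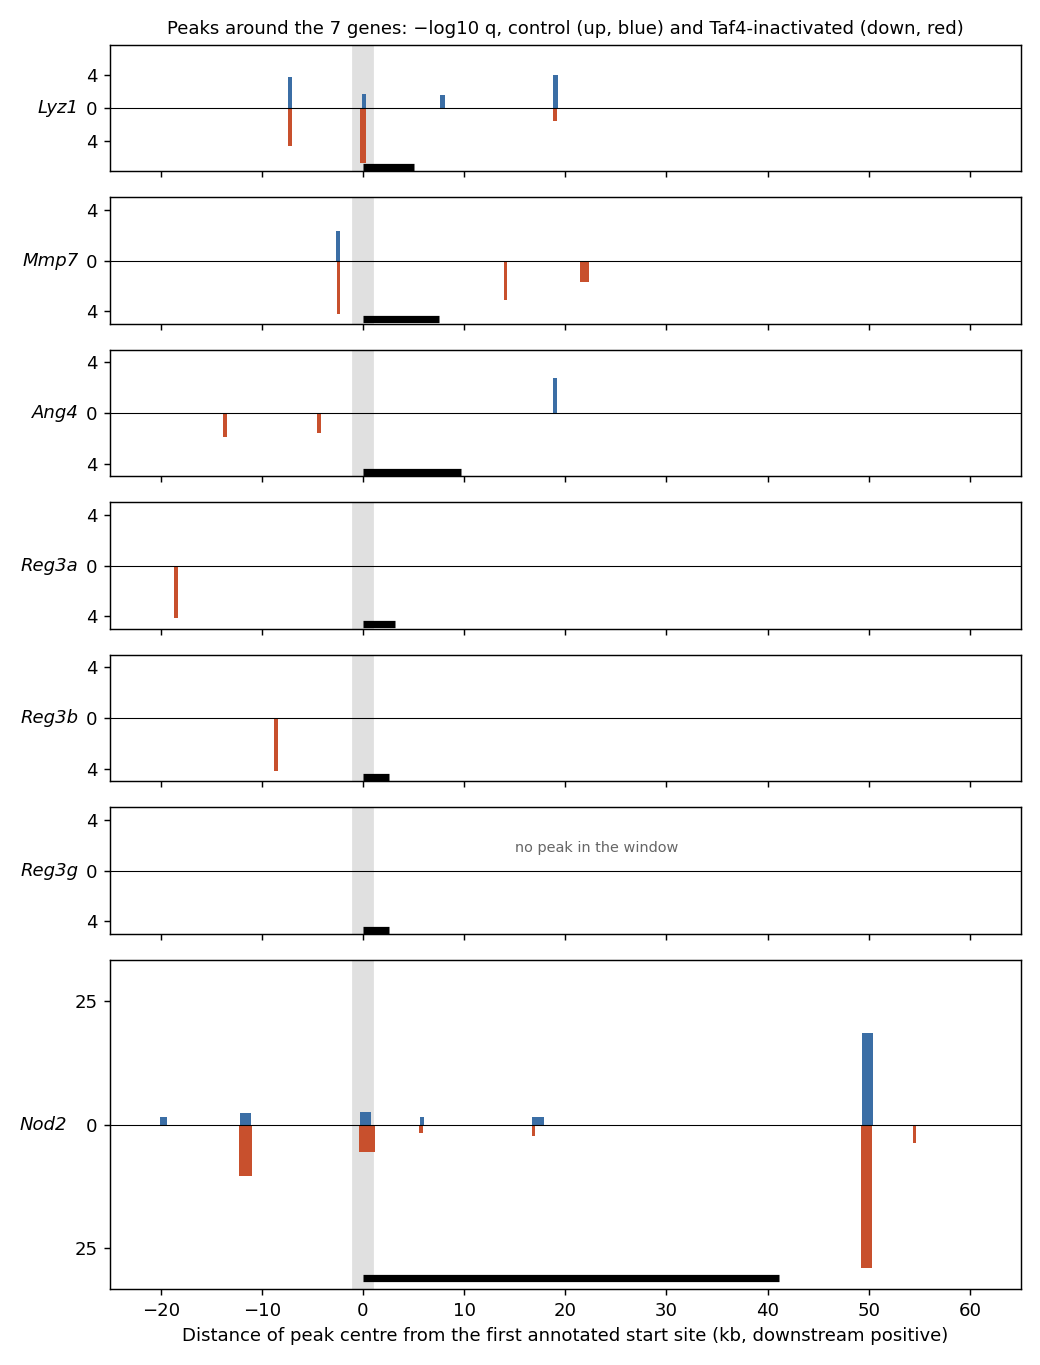
Peaks around each of the 7 genes by distance of the peak centre from the first annotated start (x axis, kb), with −log10 q as height (y axis, on a wider scale for Nod2), control upward in blue and Taf4-inactivated downward in red, grey marking 1 kb on each side of the first start and black bars the gene bodies. Lyz1 and Nod2 have peaks at the start in both directions, and Reg3g has none.

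At Lyz1 (ENSMUSG00000069515.5, chr10:116724852-116729924, minus strand), the promoter peak spanned chr10:116729684-116729935 in control enteroids, 252 bp, with a fold of 2.03 and a −log10 q of 1.68, at percentile 50.1 of its list. In Taf4-inactivated enteroids it spanned chr10:116729593-116730171, 579 bp, with a fold of 3.44 and a −log10 q of 6.70, at percentile 86.2. The lysozyme promoter thus had a wider peak, of higher rank, in the library of lower depth, and the control peak lay wholly inside it. The rank difference, +36.1 points, was matched or exceeded by 3.36% of the 14014 coding genes with a promoter peak in both lists, whose median difference was −2.77. It was +42.7 points by −log10 p, +41.8 by width and +36.1 among promoter peaks alone. Solved from fold and p, the mean pileup of the peak was 25.8 reads over a background of 12.2 in control and 29.4 over 7.83 after Taf4 inactivation. At the depth of the other library the control fold would give a −log10 p of 2.63, below the lowest of that list (2.87).

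Distal peaks of Lyz1 did not share this direction. Upstream, 7204 bp before the start, a control peak of 219 bp (fold 2.49, percentile 87.9) lay within a Taf4-inactivated peak of 380 bp (fold 3.03, percentile 76.9), a rank difference of −10.9 points. Downstream, at 19012 bp, a control peak of 457 bp stood at percentile 88.7 (fold 2.52, −log10 q of 4.07) and its Taf4-inactivated counterpart of 245 bp at percentile 31.8 (fold 2.27, −log10 q of 1.58). That difference, −57.0 points, was the most negative of the 9 pairs around the 7 genes, and both peaks lay beyond Lyz2, the tandem neighbour that encodes macrophage lysozyme, whose start was 8465 bp from the control peak. Another control peak at 7890 bp (475 bp, fold 1.99, −log10 q of 1.53), 2657 bp from the Lyz2 start, had no partner. The stretch common to both upstream peaks is shown on the plus strand, with an ATCAAAG (the letters of a TCF site) and an AGATAA (those of a GATA site) in capitals, as the region called in both lists upstream of the gene:
Lyz1 upstream peak, chr10:116737019-116737237, plus strand: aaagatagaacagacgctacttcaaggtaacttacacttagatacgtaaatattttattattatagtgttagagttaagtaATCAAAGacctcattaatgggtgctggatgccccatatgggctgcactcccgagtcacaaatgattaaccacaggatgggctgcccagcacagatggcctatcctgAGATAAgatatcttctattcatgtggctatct

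ATCAAAG was present, on either strand, in the central 200 bp of 2.68% of all distal control peaks and 3.33% of those in the Taf4-inactivated list. AGATAA or TGATAA was present in 13.4% and 17.4%. Of the 23 distal entries listed for the 7 genes over both lists, where the peak shared by Reg3a and Reg3b is entered once, ATCAAAG was present in the central 200 bp of both upstream Lyz1 peaks and of 1 Nod2 peak.

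Mmp7 (ENSMUSG00000018623.8, chr9:7692086-7699585, plus strand) had no promoter peak, but a peak just upstream in both lists. It spanned chr9:7689510-7689719 in control (210 bp, fold 2.18, −log10 q of 2.31, percentile 70.9) and chr9:7689520-7689805 after Taf4 inactivation (286 bp, fold 2.95, −log10 q of 4.24, percentile 74.5). The matrilysin peak thus kept nearly the same rank (+3.66 points), with 200 bp in common. Its nearest edge was 2367 bp from the start in control and 2281 bp after Taf4 inactivation, in an intron of AV064505, an antisense gene that overlaps Mmp7. Both further peaks of Mmp7 were called after Taf4 inactivation alone, downstream of the gene, at 14077 bp (231 bp, fold 2.69, −log10 q of 3.08) and 21927 bp (877 bp, fold 2.30, −log10 q of 1.67). At the depth of the control library the same folds would give a −log10 p of 7.93 and 5.38. These exceed the lowest of that list (2.80), as would those of any peak from the shallower library. The common part of the upstream peak is shown on the plus strand, as the open region nearest to the Mmp7 start, and none of the motifs searched occurred in it:
Mmp7 upstream peak, chr9:7689520-7689719, plus strand: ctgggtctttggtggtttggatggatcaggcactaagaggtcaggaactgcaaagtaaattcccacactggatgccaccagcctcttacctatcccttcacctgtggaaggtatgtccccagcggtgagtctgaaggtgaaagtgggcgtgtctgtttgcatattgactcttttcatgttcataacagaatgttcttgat

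Ang4 (ENSMUSG00000060615.5, chr14:52383553-52393265, minus strand) had 1 distal peak in control and 2 after Taf4 inactivation, none of which overlapped. The control peak lay 18981 bp downstream of the start (329 bp, fold 2.28, −log10 q of 2.75, percentile 78.5), within 1 kb of the start of Ear-ps3, a transcribed pseudogene. The Taf4-inactivated peaks lay 4337 bp upstream (391 bp, fold 2.27, −log10 q of 1.58, percentile 32.0) and 13660 bp upstream (344 bp, fold 2.37, −log10 q of 1.90, percentile 43.0). The nearest peak to the angiogenin 4 start was therefore 18817 bp away in control and 4142 bp away after Taf4 inactivation. At the depth of the other library the control peak would have a −log10 p of 3.44, above the lowest of that list. At the control depth the Taf4-inactivated peaks would have 5.21 and 5.81. Both exceed the lowest of the control list, as would any peak from the shallower library.

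Reg3a (ENSMUSG00000079516.1, chr6:78330703-78333833, plus strand), Reg3b (ENSMUSG00000071356.4, chr6:78320879-78323460, plus strand) and Reg3g (ENSMUSG00000030017.1, chr6:78416262-78418868, minus strand) lie in 1 cluster with Reg1, Reg2 and Reg3d. Across these 98.0 kb and 6 genes, 0 peaks were called in either list. In control enteroids, 192 kb around the cluster held no peak, from chr6:78261895-78262094 on the left to chr6:78453887-78454234 on the right, and after Taf4 inactivation the gap was 130 kb. The nearest peak to the start was 58785 bp away for Reg3b, 68609 bp for Reg3a and 35019 bp for Reg3g in control. The corresponding distances were 8413, 18237 and 23189 bp after Taf4 inactivation. For genes of the lowest CpG quintile the median distance was 16511 bp in control and 22806 bp after Taf4 inactivation, and 15.9% and 17.8% of all coding genes had their nearest peak over 20 kb away. The lectin genes were thus further from a peak than that median in control, each of the 3, and after Taf4 inactivation Reg3g alone was.

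The single peak in the windows of Reg3b and Reg3a was at chr6:78312065-78312466 in the Taf4-inactivated list (402 bp), 8614 bp upstream of Reg3b and 18438 bp upstream of Reg3a. It had a fold of 2.95 (mean pileup 23.9 reads over a background of 7.45) and a −log10 q of 4.14, at percentile 74.6. No control peak overlapped it. The control library was the deeper, so the same fold there gives a higher −log10 p by construction, here 9.78. Its central 250 bases are shown on the plus strand, as the sole peak near the lectin genes in either list, with an ATCAAAG, which lies outside the central 200 bases, in capitals:
Reg3b and Reg3a upstream peak, chr6:78312141-78312390, plus strand: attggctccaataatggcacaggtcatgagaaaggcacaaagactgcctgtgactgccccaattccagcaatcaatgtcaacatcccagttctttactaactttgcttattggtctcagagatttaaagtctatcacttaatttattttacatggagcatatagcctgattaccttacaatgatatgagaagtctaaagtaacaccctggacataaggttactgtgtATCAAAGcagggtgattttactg

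Nod2 (ENSMUSG00000055994.9, chr8:91171214-91212373, plus strand) had 3 annotated start sites and a promoter peak that covered the first. In control it spanned chr8:91170944-91172044 (1101 bp, fold 1.97, −log10 q of 2.49, percentile 38.4) and after Taf4 inactivation chr8:91170858-91172417 (1560 bp, fold 2.76, −log10 q of 5.55, percentile 67.7). The rank difference was +29.3 points, which 4.80% of the coding genes with both peaks reached. It narrowed to +8.59 points by −log10 p, +13.9 by width and +17.4 among promoter peaks of coding genes. Against a median promoter percentile of 86.5 in control and 81.5 after Taf4 inactivation over all coding genes, the Nod2 and Lyz1 promoters ranked below the median in control, and Lyz1 alone was above the median after Taf4 inactivation.

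Within the Nod2 gene, 2 weak peaks over coding exons were called in both lists. The first, 5851 bp after the first start, stood at percentile 19.0 in control and, at 5706 bp, 26.9 after Taf4 inactivation. The second, at 17314 bp, was 1118 bp wide at percentile 16.5 in control, and at 16868 bp it was 230 bp wide at percentile 42.1 after Taf4 inactivation. The remaining pairs lay at the start sites of neighbouring genes. At Snx20, 11644 bp upstream of Nod2, the pair stood at percentile 32.1 (fold 1.95) in control and 80.7 (fold 3.17) after Taf4 inactivation, a difference of +48.6 points. At Cyld, a deubiquitinase gene downstream of Nod2, the pair stood at 99.4 (fold 3.67) and 98.7 (fold 4.91), the highest of all peaks around the 7 genes. A control peak 19720 bp upstream, in a coding exon of Snx20, was the lowest ranked (fold 1.76, percentile 4.79) and had no partner, nor did a Taf4-inactivated peak of 208 bp in an intron of Cyld (fold 2.58, percentile 59.0).

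**Figure D3:**
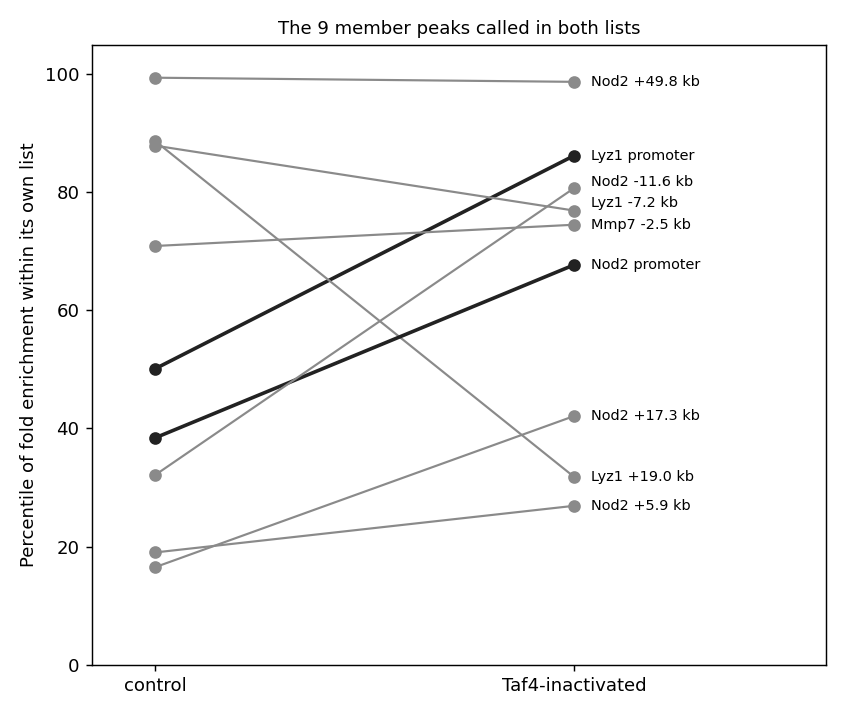
Percentile of fold enrichment within its own list (y axis) for the 9 peaks around the 7 genes called in both control and Taf4-inactivated enteroids (x axis), with promoter peaks in black and distal peaks in grey, labelled by distance from the first start. Lyz1 moves from 50.1 to 86.2 at its promoter and from 88.7 to 31.8 at its downstream peak.

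Of the 9 pairs, 6 ranked higher after Taf4 inactivation (66.7%), against 40.2% of 42491 pairs over the genome, and their median difference was +7.83 points against −2.98. At start sites of any gene 35.4% of pairs ranked higher, and among distal pairs 43.0%. The 9 pairs ranged from −57.0 to +48.6 points, and 5 of them lay in the window of Nod2, including the start sites of Snx20 and Cyld. With so few pairs, no interval was computed and the contrast with the genome was not tested. The fold itself was higher in the Taf4-inactivated list for 8 of 9 pairs, as for 93.8% of all pairs.

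Of the 12 control peaks 3 had no partner (25%, exact Clopper-Pearson 95% interval 5.49 to 57.2%, counting error only), against 52.7% of all control peaks. Of the 15 Taf4-inactivated peaks 6 had none (40%, 16.3 to 67.7%), against 39.8% of all. The intervals are wide, and the second share was that of the list as a whole. For 2 of the 3 control peaks without a partner, those of Lyz1 and Nod2, the fold at the depth of the other library would give a −log10 p of 2.50, below the lowest of that list (2.87). For each of the 6 Taf4-inactivated peaks without a partner, at Mmp7, Ang4, Reg3b and Cyld, the value at the control depth was 5.21 or more, above 2.80. At the greater control depth the same fold gives a higher −log10 p, so the outcome for those 6 peaks was fixed in advance. All of these values assume that the fold would be the same in the other library. Over all pairs, the fold was higher in the Taf4-inactivated list for 93.8%.

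Because the authors kept only reads with 1 best position, sequence present in several copies contributed no reads, and the share of 50-base words that occur once in mm9 was counted at each gene. The read length is not given in the sources used here, so 50 bases is an assumption. In the 1 kb on each side of the start it was 100% for Mmp7, Reg3a, Reg3g and Nod2, 92.7% for Ang4, 90.2% for Reg3b and 89.9% for Lyz1. The median of all coding genes was 100%, and 5.29% of them were under 50%. Repeated words of Reg3b lay before the start, where 79.9% occurred once. Over the gene bodies the share was 83.6% for Lyz1 and 71.1% for Ang4, and 97.8% or more for the other 5. In the windows used for distal peaks (gene body plus 20 kb on each side) it was lower for the lectin genes. It was 78.1% for Reg3a, 79.4% for Reg3g and 83.6% for Reg3b there, 69.0% for Ang4, 87.8% for Lyz1, 89.6% for Mmp7 and 98.3% for Nod2. Over the gene and 1 kb on each side, Lyz1 shared 885 of 7024 distinct words with Lyz2, and Ang4 had in common 526 of 11512 with Rnase4, the most of any gene within 2 Mb. Each promoter without a peak was thus at least 90.2% unique at this word length, and with 36-base words Ang4 (80.9%), Lyz1 (81.6%) and Reg3b (87.2%) were the lowest. All peaks of the 7 genes were 100% unique except the Taf4-inactivated peaks at the Lyz1 promoter (88.5%), at Ang4 upstream (97.4%) and at Mmp7 far downstream (98.8%). By contrast, the promoters of 12 α-defensin genes (Defa), whose products Mmp7 activates, ranged from 6.56 to 70.9% with a median of 18.2%, and 10 of them were under 50%.

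**Figure D4:**
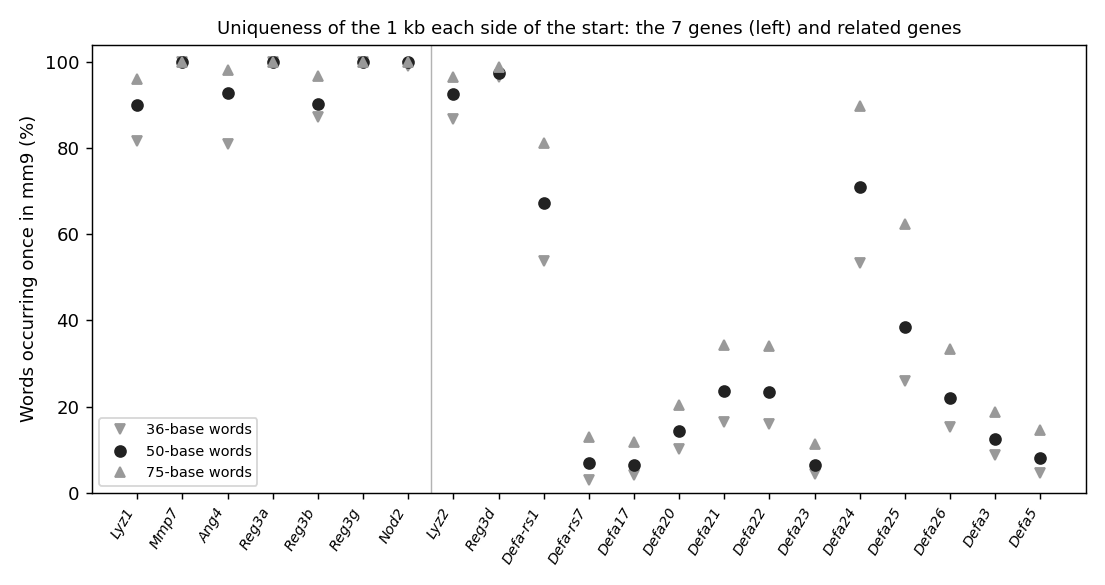
Percentage of words of 36, 50 and 75 bases in the 1 kb on each side of the start that occur once in mm9 (y axis) for the 7 genes (left of the line) and related genes (right), with 50-base words as black circles. The 7 genes lie between 89.9 and 100% at 50 bases, while the Defa genes lie between 6.56 and 70.9%.

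The other genes of the same roles had promoter peaks at counts that differed by at most 1 between lists. Of 17 annotated granule product genes, 4 had one in both lists (Itln1, Ang, Habp2 and Pnliprp2), and the 12 Defa genes had neither promoter nor distal peaks. Itln1, an intelectin, stood at percentile 80.5 in control and 36.5 after Taf4 inactivation, with 8 and 1 distal peaks, while Ang stood at 75.3 and 85.7. None of Reg1, Reg2, Reg3d and Reg4 had a promoter peak in either list. All 5 annotated genes listed as Paneth cell fate factors had one in both. Among them were Atoh1, required for secretory cells, at percentile 91.8 and 72.3, and Sox9, required for Paneth cells, at 60.2 and 25.9. Xbp1 stood at 88.7 and 79.8 and Tcf4 at 98.6 and 92.6, whereas Spdef ranked higher after Taf4 inactivation (12.7 and 22.4). Tcf4, also among the 5, is the gene of that symbol on chromosome 18, not the gene of the Wnt effector also called TCF4. Its place among Paneth fate factors is therefore not established here. Niche ligands had 4 of 5 in control and 5 of 5 after Taf4 inactivation, the additional one being Wnt3 at percentile 15.8. Of 13 sensing and signalling genes 12 had one in both lists, among them Ripk2, the kinase through which Nod2 signals (99.4 and 93.1), and Il22ra1, the receptor chain for the cytokine that induces Reg3 lectins (97.2 and 95.5), whereas Tlr4 had none. A promoter peak was thus missing in both lists at 5 of the 7 genes, those other than Lyz1 and Nod2. It was also missing at 13 of 17 further granule genes, 4 of 4 further Reg genes, 1 of the 13 sensing genes and none of the listed fate factors. Over all coding genes 62.7% had a promoter peak in both lists. Of those 13 granule genes 12 were the Defa genes, 10 of them with promoters under 50% unique, and the other was Lyz2. All 13, with Reg1, Reg2 and Reg3d, lay in CpG quintile 1, where 21.5% of coding genes had one in control. Reg4 lay in quintile 3. Atoh1, Xbp1, Sox9 and Tcf4 lay in quintile 4, where 96.9% had one, and Spdef in quintile 2. Sensing genes were spread over quintiles 1 to 5. Whether CpG content accounts for the contrast was not tested.

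Other motifs were searched on both strands in the 250 bases before each start. TGANTCA (AP-1) was present in Mmp7 and Ang4, against 6% of coding genes, and ATCAAAG in Reg3a and Reg3g, against 3.05%. AGATAA or TGATAA was present in Lyz1, Mmp7 and Reg3b (15.5% of coding genes), TTCNNNGAA, the STAT letters, in Ang4 and Reg3b (6.83%), TTTATG, those of a CDX site, in Reg3b (10.1%), and CAAAGTCCA (HNF4) in none of the 7 (0.398%). TATAAA anywhere in the 250 bases was present in Mmp7, Reg3b and Reg3g (12.3%). Each match is a description of letters, and binding was not measured. The shares are over all coding genes and are not matched for CpG content.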

How the data were processed

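ATAC-seq was performed on 1 control and 1 Taf4-inactivated enteroid library, grouped by genotype as labelled. Per the submitters' processing notes and the study's methods, the authors used bcl2fastq 2.17.1.14, mapped reads to mm9 with Bowtie 1.0.0, keeping reads with a single best position, and called broad peaks per library with MACS2 2.1.1, shifting reads and extending them to 200 bp. Treatment of duplicate reads is not given in the sources used here. For each peak the authors deposited a score, a fold enrichment over the library's own background, and −log10 p and −log10 q values. Depth was solved from fold and p (5th percentile over the narrowest 10% of peaks), and the limits to detection follow from it. Peaks were converted to 1-based coordinates and assigned to genes of the GENCODE annotation of NCBIM37. Overlap required 1 bp. Words, CpG and motifs were counted in the genome sequence and promoters were aligned with Biopython 1.88. Python 3.11.15, numpy 2.4.6, pandas 2.3.3, scipy 1.17.1, numba 0.67.0 and matplotlib 3.10.9 were used, and overlap, depth and word counts were tested on simulated data. All 7 genes were named in full, and of companion genes those with a promoter peak in 1 list, other companions being named as examples after their values were seen. Of 21 granule product names 17, and of 6 fate factor names 5, were annotated as coding. The result for 1 immune marker is not reported here. The members and lists were chosen with earlier results of these data known. Alternatives changed distances, the q threshold, overlap, rank measure, word length and promoter length. Leaving out distal peaks at any start site was added after seeing the data.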

Additional observations from a re-analysis of the deposited data

How the results depend on the processing

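No paired analysis was possible because each genotype had a single library. Of 61 alternative values 38 stayed close to the value given and 23 moved. Close meant within a factor of 1.5 for counts, 10 points for rank differences and 5 points for uniqueness. A promoter count of 3 in place of 2 was thus called close. Only the 8 alternatives for rank differences could reverse in sign, and none of them did. The rest were counts or percentages, which cannot. Genes with a promoter peak, 2 and 2, became 3 in control, with Mmp7 added, and 4 after Taf4 inactivation, with Mmp7 and Ang4 added, at 5 kb, and 1 in control at a −log10 q of at least 2 and 0 at 5. Distal peaks, 10 in control and 13 after Taf4 inactivation, numbered 21 and 26 with flanks of 50 kb, 6 and 8 at a −log10 q of at least 2, and 1 and 2 at 5, and 8 after Taf4 inactivation with flanks of 10 kb. Peaks without a partner, 3 and 6, were 8 and 12 at 50 kb, 5 in control when 50% of both peaks had to overlap, and 3 after Taf4 inactivation at 10 kb. The shares of all coding genes and of all peaks at these other settings are not given here. The changed counts therefore cannot be read as particular to these genes. Changes with the window and the q threshold follow by construction, as wider windows hold more peaks and higher thresholds fewer, and those with the overlap rule as a stricter rule leaves fewer partners. The Nod2 rank difference, 29.3 points, was 8.59 by −log10 p, 13.9 by width and 17.4 among promoter peaks, and the cause was not tested. Leaving out distal peaks within 1 kb of any start site, chosen after the data were seen, left 7 in control, 2 of them without a partner, and 11 after Taf4 inactivation, 6 of them without one. A missing peak at these depths does not show closed chromatin. Promoter ranks of Lyz1 and Nod2 rest on 1 peak in each library.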
